A study of Homo sapiens with 6 samples.

Results

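The enzymes of purine and thymidylate synthesis examined here were PPAT, GART, PFAS, PAICS, ADSL and ATIC of the de novo purine pathway, IMPDH1 and IMPDH2 of the guanine nucleotide branch, and TYMS and RRM2, which supply thymidylate and deoxynucleotides. They were taken from the table by symbol, without a threshold on their values. They were 10 of the 58884 genes in the table, each with a single row, and all 10 were among the 15994 genes tested. RNA-seq compared KYSE70, a human cell line established from esophageal squamous cell carcinoma (ESCC), with a mutant NFE2L2 gene, with NRF2null-KYSE70, a line derived from it by CRISPR-Cas9 cutting of NFE2L2. NFE2L2 encodes NRF2, a transcription factor that switches on antioxidant and metabolic genes. Both lines were untreated, grown in RPMI1640 with fetal bovine serum, and had 3 libraries each. NRF2null-KYSE70 was grown from a single clone, and the study detected a faint NRF2 band of lower molecular weight in it, so a difference between the lines was one between this clone and its parent. P-values measured the spread between libraries, and whether these were separate cultures was not stated.

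De novo purine synthesis assembles the purine ring step by step on phosphoribosyl pyrophosphate (PRPP), a sugar phosphate made by PRPP synthetases, until inosine monophosphate (IMP) is formed. Folate cofactors donate carbon atoms to the ring on the way. IMP is then turned into AMP by adenylosuccinate synthetase and ADSL, or into GMP by an IMP dehydrogenase and GMPS. Ribonucleotide reductase makes deoxynucleotides from ribonucleotides, and thymidylate synthase methylates dUMP to dTMP with a folate cofactor. Dividing tumor cells depend on these routes for DNA and RNA, and several of the enzymes are targets of antifolates, fluoropyrimidines or hydroxyurea. NRF2 is known to raise the supply of ribose phosphate and NADPH by way of the pentose phosphate pathway.

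Each library held between 52072801 and 63975313 reads assigned to genes, so the lowest value of a member, ADSL in NRF2null-KYSE70, still rested on 414 reads. Values are normalized counts, that is, reads divided by 1 size factor per library, and 1 read was worth 0.889 to 1.14 of them. NRF2null-KYSE70 library 1, numbered by its order in the table, stood apart from the other two of its line: the chi-square per degree of freedom was 25.4 and 24.7 against them and 4.70 between them. It had the lowest ADSL, TYMS and RRM2 of all libraries, RRM2 by little (14862 normalized counts against 14986 in the next lowest). Without it PFAS passed, the other 9 members kept their side of the threshold, and ADSL and TYMS had log2 fold changes of -0.27 and -0.31 (against -0.41 and -0.35 with it). NFE2L2, the gene that was cut, went from 9928 ± 102 normalized counts in the parent to 6093 ± 319 in the clone (SD, n = 3), or 61.4%, which was the direction of the labels. KEAP1, whose product marks NRF2 for degradation, was at 58.3% of it. All 10 NRF2-responsive metabolic enzymes of a list drawn up beside the members were lower in NRF2null-KYSE70, among them GCLC (-1.58) and NQO1 (-0.93). Their median log2 fold change was -0.79. At a limma adjusted p under 0.05, 28.3% of all genes tested were lower. Relative to their arms all of these enzymes stayed lower, some by less and some by more. The squamous markers KRT5, KRT17, TP63, DSG3 and SOX2 were present in both lines. SOX2 and KRT17 were higher and the other markers lower in NRF2null-KYSE70, but the direction of SOX2 reversed when its arm median was subtracted, to -0.13. Of 3 markers of other cell types, the endothelial PECAM1 was at or near 0 in all libraries, whereas the leukocyte gene PTPRC had 0 to 1.05 normalized counts in KYSE70 and 40.2 to 47.9 in NRF2null-KYSE70. The fibroblast gene COL1A1 ran the other way, at 1232 ± 88.4 against 554 ± 78.9 normalized counts (SD, n = 3). The summed level of PTPRC and COL1A1 was 1172 to 1333 against 503 to 653, most of it COL1A1. The part of these markers in the results below was not tested.

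To determine whether the clone differed from its parent in the expression of these enzymes, each member was tested within the fit over all genes. At a limma adjusted p under 0.05, 4 of the 10 members were higher in NRF2null-KYSE70, 4 were lower and 2 did not pass. Over all genes tested, 29.3% were higher and 28.3% were lower at the same threshold. The members' shares were near this background or only a little above it, so being called is not in itself a feature of these enzymes. No member reached the study's fold cut-off, an absolute log2 fold change of 1, which together with the adjusted p was passed by 14.7% of all genes tested. The median log2 fold change of the members was -0.03, and that of all genes was -0.01. The 4 members that were higher, PPAT, GART, PAICS and ATIC, all act on the way to IMP. The 4 that were lower were ADSL, IMPDH2, TYMS and RRM2, and PFAS and IMPDH1 did not pass. The ranges of the lines overlapped in PFAS and IMPDH1 and not in the members that were called. How often the lines do not overlap over all genes was not computed, so this is not read as a feature of these enzymes.

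**Figure D1:**
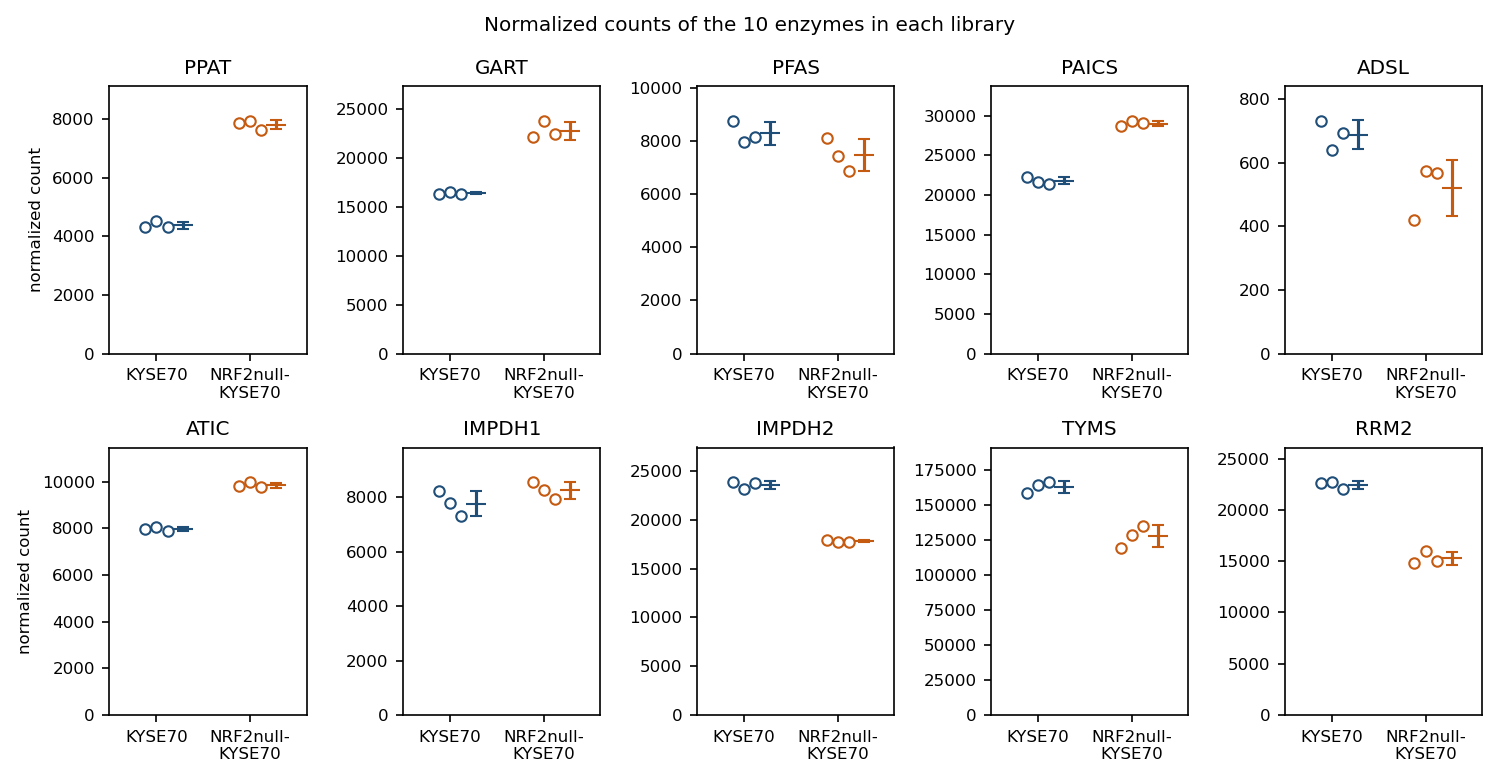
Normalized counts of the 10 enzymes in each library, with 1 panel for each gene; points are the 3 libraries of KYSE70 and of NRF2null-KYSE70, and bars give the mean and SD. As a fold, PPAT shows the widest difference among the higher members (1.78-fold, from 4380.5 to 7816) and RRM2 among the lower members (to 68.1%, from 22427 to 15267), while the libraries of PFAS and IMPDH1 overlap between the lines.

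PPAT (ENSG00000128059; chromosome 4, 56393362 to 56435615, minus strand, hg38) encodes the amidotransferase that commits PRPP to the purine pathway. It was at 4324, 4511 and 4307 normalized counts in the KYSE70 libraries and at 7874, 7944 and 7630.4 in those of NRF2null-KYSE70. The lowest library of the clone was thus far above the highest of the parent. The means were 4380.5 ± 113 and 7816 ± 165 (SD, n = 3), a 1.78-fold difference and the largest fold among the 10 members, with a log2 fold change of 0.84 ± 0.047 (SE, adjusted p = 1.22e-08 by limma).

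PAICS (ENSG00000128050; chromosome 4, 56435741 to 56464578, plus strand), which carries out a carboxylation and the following step in the middle of the pathway, lies head to head with PPAT. Its normalized counts were 22272, 21612 and 21445 in KYSE70 and 28669.8, 29352 and 29038 in NRF2null-KYSE70. The lines did not overlap here either, but as a fold the difference was smaller than for PPAT. From 21776 ± 437 the mean went to 29019.9 ± 342 (SD, n = 3), 1.33-fold higher, and the log2 fold change was 0.41 ± 0.042 (SE, adjusted p = 3.07e-06 by limma).

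The stretch between the start sites of PPAT and PAICS is shown because both genes were higher in the clone and share it as their upstream region. In RefSeq (GRCh38.p14) the start sites are at 56435615 on the minus strand and at 56435752 on the plus strand. PAICS has further RefSeq start sites at 56410507 and 56436260, and the stretch was drawn to the one nearest PPAT. Capitals mark the only match in the stretch to the core of the antioxidant response element, the motif that NRF2 binds with its MAF partners, which reads TGACNNNGC on the opposite strand.
PPAT to PAICS, chr4:56435616-56435751, plus strand, 136 bases: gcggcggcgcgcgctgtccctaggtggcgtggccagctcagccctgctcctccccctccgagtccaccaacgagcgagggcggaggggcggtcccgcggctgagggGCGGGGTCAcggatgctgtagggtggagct
The stretch had a GC content of 75.0%. The marked letters begin at -30 from this start of PAICS, and read from PPAT they begin at -115. The windows of the other PAICS start sites held no match to the core. Some match to this core was present in 13.3% of the 35116 promoter windows of all genes (250 bases before to 50 after a start site, both strands), so its presence is a description of the letters and not evidence of binding.

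Promoter windows were found for 8 of the 10 members, 13 windows in all, and 5 motifs were searched in them. ADSL and IMPDH2 had no window and were not searched. The E-box CACGTG lay in the windows of 3 members and in 7.26% of all windows. ATIC held 2 matches, at -46 and +30 from its start. PPAT (-182) and PAICS (+41 of 1 of its start sites) held 1 and the same match, since these windows overlap. The E2F motif, TTTCCCGC or TTTGGCGC, was matched in 2.27% of all windows and in 2 members, in TYMS at -39 and in GART at -245 of 1 of its start sites. CCAAT lay in 34.6% of all windows, and among the members in RRM2 and GART. In RRM2 it occurred 3 times in 1 window, at -123, -93 and -66. The palindromic motif of the factor NRF1 was in 1.24% of all windows and in those of 0 members. Among the members with a window, the antioxidant response element core was matched only in PPAT and PAICS. No motif was therefore common to the members that were higher, or to TYMS and RRM2, the lower members that were searched.

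GART (ENSG00000159131; chromosome 21, 33503931 to 33543491, minus strand) is a trifunctional enzyme that acts after PPAT and includes a folate-dependent transferase. Its normalized counts were 16353, 16505 and 16319 in KYSE70 and 22119, 23817 and 22443 in NRF2null-KYSE70. All libraries of the clone were higher, and they were spread more widely than those of the parent. The difference was 1.39-fold, from 16393 ± 99.0 to 22793 ± 902 (SD, n = 3), with a log2 fold change of 0.47 ± 0.045 (SE, adjusted p = 1.53e-06 by limma).

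ATIC (ENSG00000138363; chromosome 2, 215311956 to 215349773, plus strand) closes the ring and releases IMP, again with a folate cofactor. It had 7969, 8062 and 7898 normalized counts in KYSE70 and 9800.03, 9969 and 9753 in NRF2null-KYSE70. This was the smallest of the 4 differences in the higher direction, 1.23-fold, yet the lines stood well apart. The means were 7977 ± 82.2 and 9840.5 ± 114 (SD, n = 3), and the log2 fold change was 0.30 ± 0.043 (SE, adjusted p = 5.3e-05 by limma).

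PFAS (ENSG00000178921; chromosome 17, 8247618 to 8270491, plus strand), the amidotransferase that acts between steps of GART and before PAICS, did not pass the test. Its values were 8769, 7955 and 8165 normalized counts in KYSE70 and 8116, 7454 and 6889.5 in NRF2null-KYSE70. The highest library of the clone lay inside the range of the parent. The mean in the clone was 90.2% of that in the parent, with a log2 fold change of -0.15 ± 0.062 (SE, adjusted p = 0.0559 by limma). This call depended on the setting, since the adjusted p was 0.0418 with TMM scaling, 0.0056 with total scaling and 0.00137 without NRF2null-KYSE70 library 1, which had 8116 normalized counts.

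ADSL (ENSG00000239900; chromosome 22, 40346461 to 40390463, plus strand) acts both on the way to IMP and in the step from IMP to AMP. It was at 732, 640.4 and 695 normalized counts in KYSE70 and at 419.9, 576 and 569 in NRF2null-KYSE70. Every library of the clone was lower, but 1 of them stood well below the other two. From 689 ± 46.0 the mean went to 521 ± 87.9 (SD, n = 3), or 75.7%, with a log2 fold change of -0.41 ± 0.124 (SE, adjusted p = 0.0118 by limma). ADSL was thus the member with the fewest reads and the largest standard error, and without limma's trend its adjusted p was 0.0584. Without NRF2null-KYSE70 library 1, the one at 419.9 normalized counts, its log2 fold change was -0.27 (limma adjusted p = 0.0298). In the annotation, 89.9% of its 1452 coding bases also belong to exons of AL022238.4, a gene on the same strand that was listed at 0 in every library. How reads in the shared exons were assigned was not stated, so the low count of ADSL is uncertain as a measure of its RNA.

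In the guanine branch the isoenzymes of IMP dehydrogenase, which share the rate-limiting step from IMP toward GMP, differed from each other. IMPDH2 (ENSG00000178035; chromosome 3, 49024325 to 49029447, minus strand), the form that is usually raised in proliferating cells, was at 23853, 23163 and 23771 normalized counts in KYSE70 and at 17989, 17775 and 17771 in NRF2null-KYSE70. The libraries lay close together within each line and far apart between the lines. The level in the clone was 75.6% of that in the parent, 17845 ± 125 against 23596 ± 377 (SD, n = 3), with a log2 fold change of -0.40 ± 0.042 (SE, adjusted p = 3.4e-06 by limma). IMPDH1 (ENSG00000106348; chromosome 7, 128392277 to 128409986, minus strand) had 8213, 7767 and 7307 normalized counts in KYSE70 and 8539, 8267 and 7923 in NRF2null-KYSE70. Its ranges overlapped, and its log2 fold change of 0.09 ± 0.054 (SE, adjusted p = 0.184 by limma) did not pass. The 7 pseudogenes named for IMPDH1 summed to at most 0.840% of its lowest library, and those of the other members to less.

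The fall of IMPDH2 was shared by its chromosome arm. The median log2 fold change was -0.48 over 316 genes of 3p and -0.66 over the 40 nearest genes, of which 36 were lower and 1 was higher at the limma threshold. Relative to the arm, IMPDH2 was not lower: its log2 fold change became 0.08 (limma adjusted p = 0.134).

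TYMS (ENSG00000176890; chromosome 18, 657653 to 673578, plus strand), thymidylate synthase, the target of 5-fluorouracil, was among the most abundant genes of these cells and ranked 21 by mean normalized count. It was at 158401, 164008 and 166179.7 normalized counts in KYSE70 and at 119572, 128738 and 134866 in NRF2null-KYSE70. These values were 0.278% to 0.292% of all reads in KYSE70 and 0.198% to 0.227% in NRF2null-KYSE70. The lines did not overlap, although the libraries of the clone were more spread out. The mean in the clone was 78.4% of that in the parent, 127725 ± 7697 against 162863 ± 4014 (SD, n = 3), with a log2 fold change of -0.35 ± 0.056 (SE, adjusted p = 0.000156 by limma).

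The genes around TYMS moved the other way: 16 of the nearest 22 were higher and 4 lower, and their median log2 fold change was 0.47. Relative to 18p, TYMS was lower by a wider margin, -0.49 (limma adjusted p = 1.04e-05). The library kit did not mark strand, and ENOSF1, on the opposite strand, shares 39.9% of the exon bases of TYMS. ENOSF1 was lower in the clone as well, 14139 against 21427 normalized counts (log2 fold change -0.60, limma adjusted p = 1.23e-07), so reads of the pair cannot be fully told apart. TYMSOS, also antisense, shares 7.97% of the exon bases and was higher in the clone, with a log2 fold change of 0.27 (limma adjusted p = 0.00388).

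RRM2 (ENSG00000171848; chromosome 2, 10120698 to 10211725, plus strand), the small subunit of ribonucleotide reductase that is made in S phase, was the member with the largest fall. Its normalized counts were 22581, 22688 and 22014 in KYSE70 and 14862, 15952 and 14986 in NRF2null-KYSE70. No library of the clone came near those of the parent. The mean in the clone, 15267 ± 597, was 68.1% of the parental 22427 ± 362 (SD, n = 3), with a log2 fold change of -0.56 ± 0.045 (SE, adjusted p = 3.94e-07 by limma). Its neighbours and its arm did not share the fall, with median log2 fold changes of 0.07 for both.

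**Figure D2:**
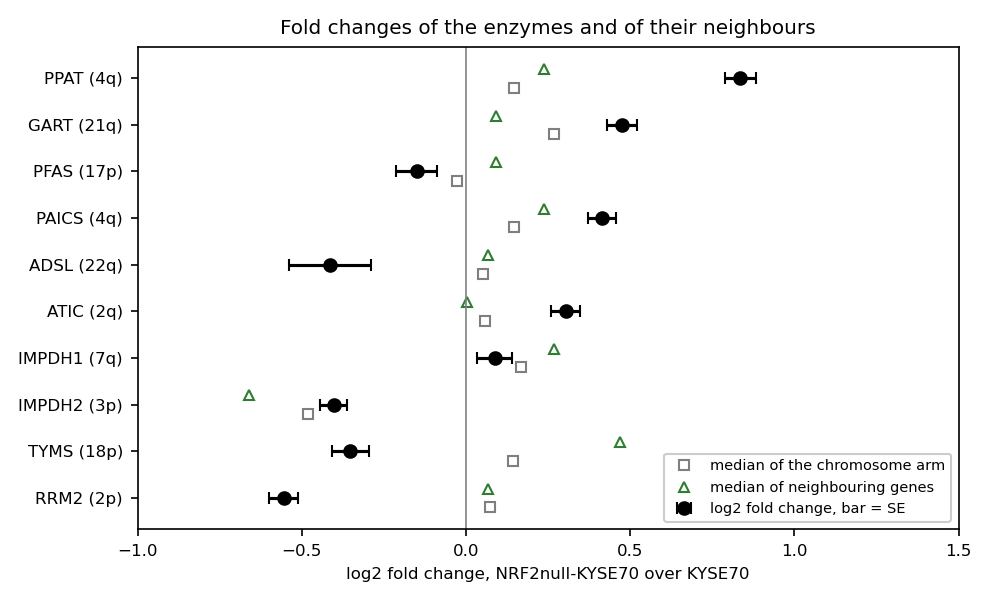
Log2 fold change (NRF2null-KYSE70 over KYSE70) of each member with its standard error, beside the median of up to 20 expressed protein-coding genes on each side and the median of its chromosome arm. IMPDH2 (-0.40) lies below 0 with its neighbours (-0.66) and arm (-0.48), whereas TYMS (-0.35) and its neighbours (0.47) lie on opposite sides of 0.

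For the 4 members that were higher, the chromosome arms moved the same way by less. The arm medians were 0.15 for 4q, which holds PPAT and PAICS, 0.27 for 21q with GART and 0.06 for 2q with ATIC. After these were subtracted, the log2 fold changes were 0.69 for PPAT, 0.21 for GART, 0.27 for PAICS and 0.25 for ATIC, with limma adjusted p-values from 9.39e-08 for PPAT to 0.00169 for GART. Relative to the arms, GART kept the smallest share of its difference, and all 4 still passed. ADSL (-0.47) and RRM2 (-0.63) also still passed, so of the 8 members called, IMPDH2 was the exception. The 40 nearest genes had median log2 fold changes of 0.24 around PPAT and PAICS, 0.09 around GART and 0.0015 around ATIC. Those near PPAT and PAICS thus moved more than the arm, and those near GART and ATIC less. The place of GART by share kept therefore holds for the arms only.

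Levels were compared between members only per length, as normalized counts per kilobase of the union of annotated exons. On this scale the order in KYSE70 was TYMS (67271 ± 1658), IMPDH2 (4606 ± 73.6), PAICS (2897 ± 58.1), RRM2 (2450.3 ± 39.6), IMPDH1 (2286 ± 133), GART (2115 ± 12.8), ATIC (2105 ± 21.7), PFAS (1282 ± 65.3), PPAT (805 ± 20.8) and ADSL (56.9 ± 3.80). The neighbours RRM2 and IMPDH1, and GART and ATIC, overlapped between libraries. In NRF2null-KYSE70 the levels per kilobase were TYMS 52757, PAICS 3861, IMPDH2 3483, GART 2941, ATIC 2597, IMPDH1 2427, RRM2 1668, PPAT 1437, PFAS 1157 and ADSL 43.1. PPAT, the committed enzyme, thus stood below PFAS in the parent and above it in the clone, and PAICS and IMPDH2 changed places. TYMS was the highest and ADSL the lowest per kilobase with the union of exons, the longest transcript and the canonical transcript alike, and the change of place between PPAT and PFAS was also seen with all 3 lengths. That of PAICS and IMPDH2 was not, since IMPDH2 remained above PAICS in both lines per kilobase of the canonical transcript. The places in the middle of the order moved with the choice of length. The last place of ADSL rests on a count that is uncertain because of its shared exons, which no choice of length changes.

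Ratios of normalized counts within a library do not depend on the scaling between libraries, so 5 ratios of paired enzymes were compared. With 3 libraries against 3, the exact permutation test cannot give a two-sided p below 0.1, and all 5 ratios reached this smallest value (0.1 also after Benjamini-Hochberg adjustment over the 6 ratios computed), that is, none of the 5 overlapped between the lines. The ratio of IMPDH1 to IMPDH2 was 0.344, 0.335 and 0.307 in KYSE70 and 0.475, 0.465 and 0.446 in NRF2null-KYSE70, a 1.40-fold shift toward IMPDH1. Relative to the arms of both genes, 7q and 3p, the direction reversed, from a log2 change of 0.49 to -0.16. That of PPAT to PAICS, which share a promoter region, was 0.194, 0.209 and 0.201 against 0.275, 0.271 and 0.263. The head-to-head pair therefore did not rise in proportion, and their ratio was higher in the clone by a factor of 1.339.

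RRM2 was also compared with the other subunits of ribonucleotide reductase, RRM1, the large subunit, and RRM2B, the small subunit that is induced by p53 and serves DNA repair. RRM2 to RRM1 was 1.27, 1.28 and 1.30 in KYSE70 and 0.980, 1.05 and 1.02 in NRF2null-KYSE70. RRM2 to RRM2B was 8.05, 7.90 and 7.76 against 3.32, 3.56 and 3.53, which was the largest shift of the 5, to 0.439 of the parental ratio. RRM2B itself was higher in the clone, 4403 ± 136 against 2837 ± 33.0 normalized counts (SD, n = 3), with a log2 fold change of 0.63 (limma adjusted p = 3.07e-07) that was 0.37 relative to its arm, 8q, and RRM1 was lower by less than RRM2 (-0.21, limma adjusted p = 0.00107).

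TYMS was set against TK1, which makes dTMP by salvage. TYMS to TK1 was 16.5, 17.001 and 16.1 in KYSE70 and 11.7, 11.7 and 12.5 in NRF2null-KYSE70. The lines lay well apart, and the mean ratio in the clone was 0.725 of that in the parent, a log2 change of -0.46 (-0.50 to -0.45 over the fits that lack 1 library). TK1 itself did not pass the test (0.11, limma adjusted p = 0.0668).

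**Figure D3:**
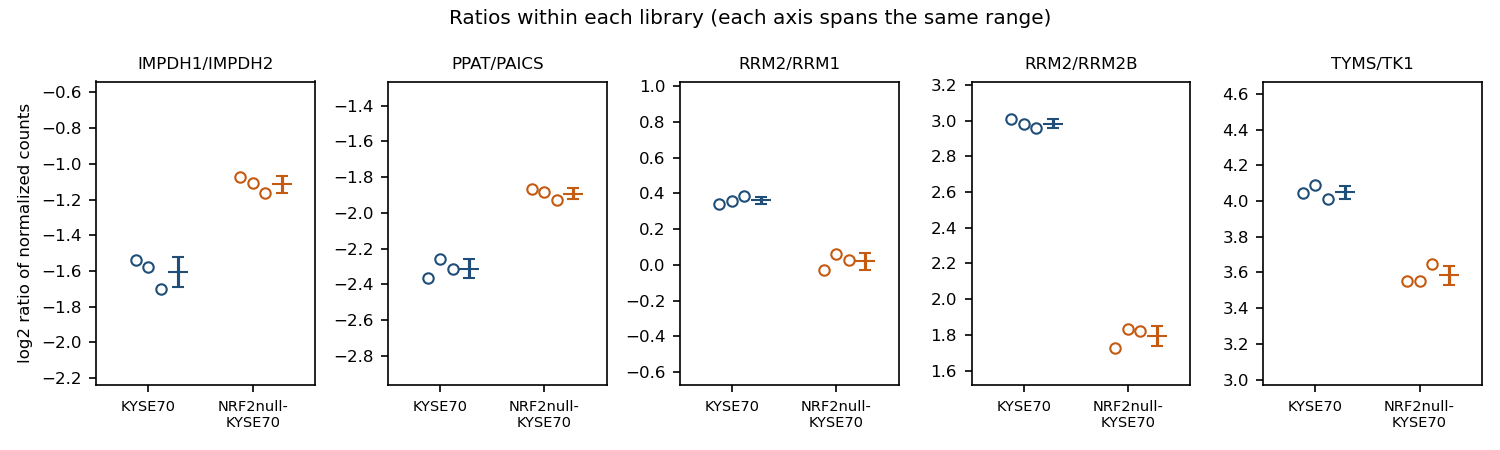
Ratios of normalized counts within each library for 5 pairs of enzymes, drawn as log2 ratios, with 3 points for each line and a bar for the mean and SD. In every pair the lines do not overlap, with the widest gap for RRM2 to RRM2B (linear ratios of 7.76 to 8.05 in KYSE70, 3.32 to 3.56 in NRF2null-KYSE70).

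The other enzymes of these pathways were grouped into 7 lists with 56 genes, of which 55 were tested and 18 were higher, 15 lower and 22 did not pass. Their median log2 fold change was -0.01, as it was for all genes, and the shares of 29.3% and 28.3% over all genes are the background for these counts. Among the 4 genes of PRPP supply, which feed PPAT, 1 was higher and 2 were lower. PRPS2, a PRPP synthetase, was 1.84-fold higher in the clone, 22174 ± 976 against 12072 ± 209 normalized counts (SD, n = 3; log2 fold change 0.88, limma adjusted p = 7.58e-09), while its homologue PRPS1 was lower (-0.32, limma adjusted p = 0.000102), as was the regulatory subunit PRPSAP2 (-0.19, limma adjusted p = 0.0322). The synthetase and the amidotransferase PPAT, which act one after the other, had log2 fold changes of 0.88 and 0.84. The call of PRPSAP2 was lost in 5 alternatives.

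Of the 8 genes that complete AMP and GMP, 2 were higher and 4 lower. GMPS, which turns the product of IMP dehydrogenase into GMP, was at 18788 ± 552 against 11117 ± 234 normalized counts (SD, n = 3), a log2 fold change of 0.76 (limma adjusted p = 1.85e-08). The median of its arm, 3q, was 0.28, and relative to it GMPS was higher by less (0.47). Its 40 nearest genes had a higher median, 0.53, with 25 of them higher and 10 lower at the limma threshold. IMPDH2, lower before this step, was not lower relative to its own arm. ADSS, the enzyme just before ADSL on the way to AMP, was lower as ADSL was (-0.43, limma adjusted p = 6.32e-06), and the muscle-type ADSSL1 was higher (0.33, limma adjusted p = 0.00991). The nucleotide kinases AK1 (-1.12) and GUK1 (-0.37) were lower.

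Salvage, which reuses free bases and nucleosides in place of new synthesis, had 5 genes, of which 3 were lower and 1 was higher. ADK was lower by 0.45, APRT by 0.35 and HPRT1 by 0.17 on the log2 scale, with limma adjusted p-values of 7.22e-06, 0.000152 and 0.0245, and DGUOK was higher (0.22, limma adjusted p = 0.0163). The call of HPRT1 was lost in 4 alternatives and that of DGUOK in 8. In purine breakdown 2 of 9 genes were higher and 0 were lower. They were NT5C2, a nucleotidase that acts on IMP and GMP, at 17923 ± 633 against 8043 ± 246 normalized counts (SD, n = 3; 1.16, limma adjusted p = 6.5e-10), and XDH, which makes uric acid, at 322 ± 66.7 against 76.2 ± 11.7 (2.06, limma adjusted p = 1.74e-06).

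In the list that surrounds TYMS and RRM2, 3 of 9 tested genes were higher and 4 were lower, and TYMP was too low to test. DTYMK, which phosphorylates the product of TYMS, was at 50.1% of the parental level, 3053 ± 250.3 against 6099 ± 376 normalized counts (SD, n = 3; log2 fold change -0.9997, limma adjusted p = 6.13e-08), a wider fall than that of TYMS. SAMHD1, which degrades deoxynucleotides, was at 42.3% (-1.24, limma adjusted p = 3.77e-09). Relative to its arm, 20q, its log2 fold change was -0.999. The mitochondrial TK2 (0.36) and DCTD (0.27), which makes dUMP from dCMP, were higher. Relative to its arm DCTD lost its call (0.12, limma adjusted p = 0.0877).

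Folate and one-carbon enzymes, which supply the carbon that GART, ATIC and TYMS use, had 5 of 11 higher and 1 lower. MTHFD2, the mitochondrial enzyme of this route, was at 49188 ± 1284 against 20966 ± 384 normalized counts (SD, n = 3), 2.35-fold higher (1.23, limma adjusted p = 2.11e-10), and was the most changed gene of its list. GGH (1.02) and the mitochondrial MTHFD1L (0.81) were also higher, with limma adjusted p-values of 8.46e-08 and 9.67e-08. Relative to their arms the log2 fold changes of GGH and MTHFD1L were 0.76 and 0.66. FPGS, which retains folates in the cell by adding glutamates, was lower (-0.23, limma adjusted p = 0.00256), but lost its call relative to its arm (-0.09, limma adjusted p = 0.184). The cytosolic MTHFD1 (-0.11, limma adjusted p = 0.0574) and the mitochondrial SHMT2 (-0.06, limma adjusted p = 0.255) did not pass. MTHFD1 passed in 5 alternatives, among them arm-centring (-0.17, limma adjusted p = 0.00839). SHMT2 lies on 12q, where the median was -0.38, and relative to it was higher (0.32).

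The pyrimidine enzymes had 4 of 9 higher and 1 lower. CAD, which opens de novo pyrimidine synthesis as PPAT opens that of purines, had the same mean in both lines, 11146 ± 947 and 11147 ± 1593 normalized counts (SD, n = 3; limma adjusted p = 0.961). DHODH (0.34) and CTPS1 (0.23) were higher and the salvage kinase UCK1 (-0.41, or -0.26 relative to its arm) was lower. UPP1, which releases uracil and ribose phosphate from uridine, was at 11595 ± 1046 against 1967 ± 109 normalized counts (SD, n = 3), the largest change in the 7 lists (2.56, limma adjusted p = 1.42e-11).

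**Figure D4:**
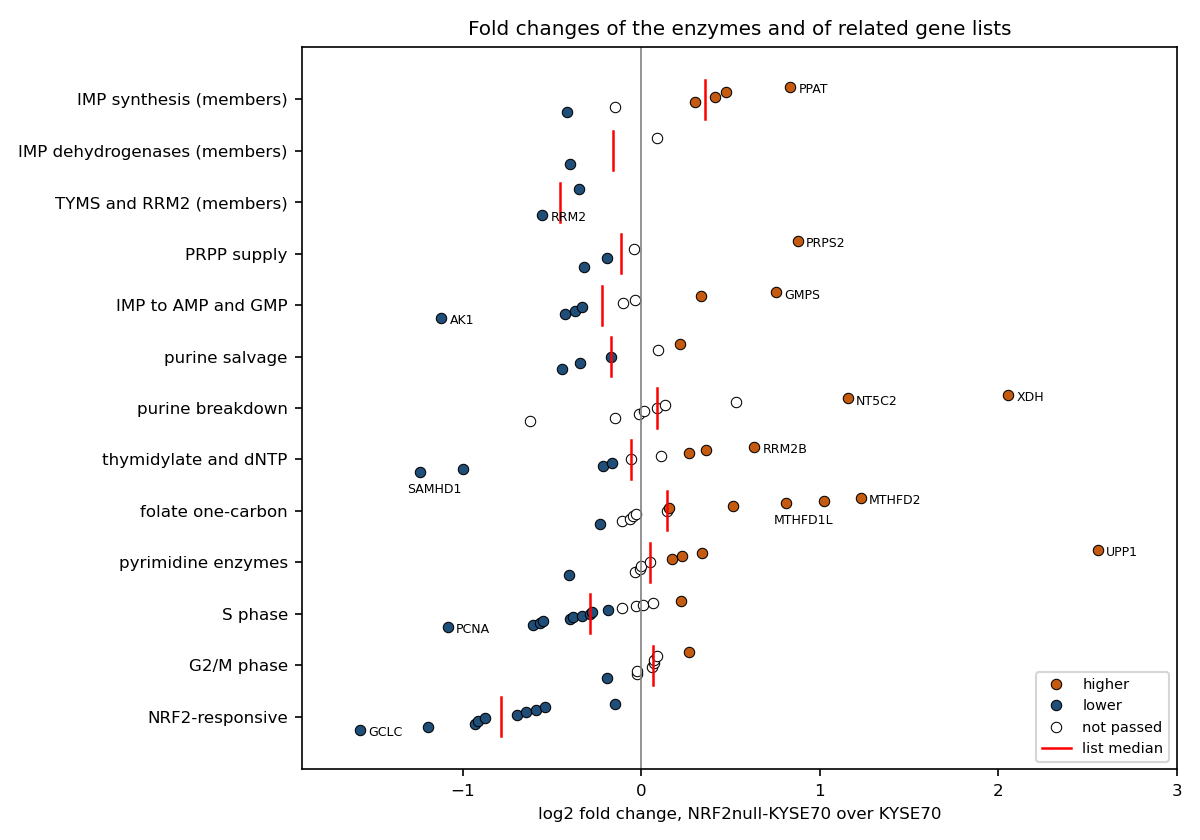
Log2 fold change (NRF2null-KYSE70 over KYSE70) of each tested gene in the members and the lists of neighbouring pathways, cell cycle phases and NRF2-responsive enzymes, 1 row for each list, colored by whether the gene passed at a limma adjusted p under 0.05, with a red line at the median of the list. All 10 NRF2-responsive enzymes lie below 0 and most S-phase genes do, while the members and the other enzyme lists spread to both sides.

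Since TYMS and RRM2 are expressed mainly in S phase, cell cycle genes were read beside them. Of 15 S-phase genes, 10 were lower, 1 was higher and 4 did not pass, with a median log2 fold change of -0.29. Over all genes tested, 28.3% were lower and 29.3% were higher. The summed level of the 15 genes was 229944 to 233005 normalized counts in the libraries of KYSE70 and 201076 to 206446 in those of NRF2null-KYSE70. A large part of this difference was PCNA alone, at 30799 ± 703 against 14514 ± 580 (SD, n = 3). PCNA, the replication clamp, fell most (-1.09, limma adjusted p = 1.02e-09), but its arm 20p had a median of -0.77 and relative to it the log2 fold change was -0.32. UNG (-0.61), CCNE2 (-0.57) and E2F1 (-0.29) were lower. Relative to their arms UNG fell less (-0.23), CCNE2 fell more (-0.83) and E2F1 lost its call (limma adjusted p = 0.581). MCM2 (0.22) was higher, which reversed relative to its arm (-0.06). RRM2 (-0.56) and TYMS (-0.35) both lay below the S-phase median.

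Of 8 G2/M genes, 1 was higher (BUB1, 0.27), 1 was lower (PLK1, -0.19) and 6 did not pass, with a median of 0.07; relative to its arm PLK1 was higher (0.29). MKI67, a marker of proliferating cells, was at 27862 ± 3711 and 29693 ± 5361 normalized counts (SD, n = 3; limma adjusted p = 0.535). By flow cytometry, the study reported a changed cell cycle distribution between these lines, and it described slower growth of NRF2null-KYSE70. In bulk RNA, a smaller share of cells in S phase and less RNA per S-phase cell cannot be told apart. The part of the cell cycle in the values of TYMS and RRM2 was not tested.

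**Figure D5:**
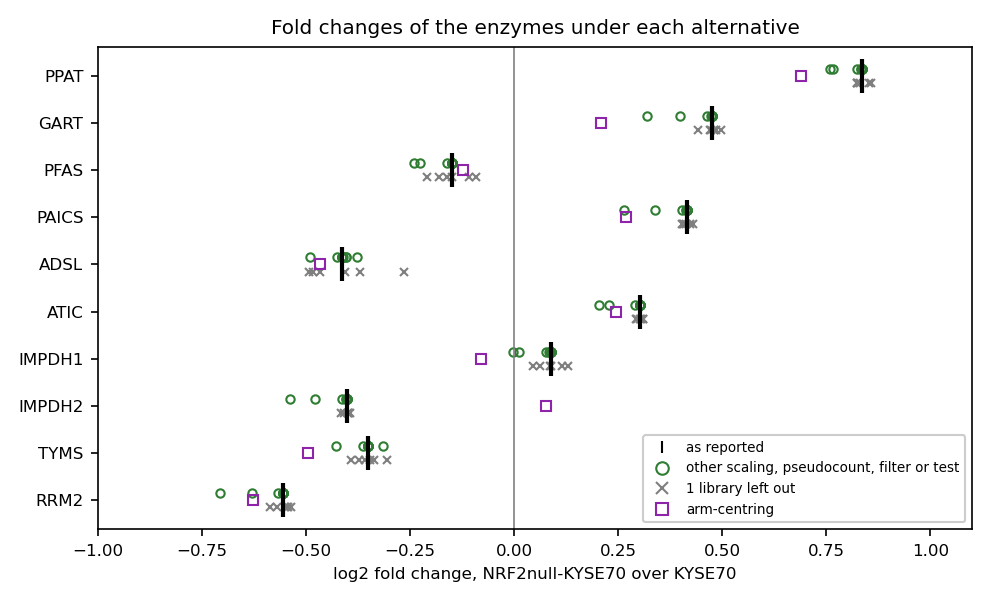
Log2 fold change of each member in the main test and in 18 alternative analyses, 1 row for each gene. PPAT, GART, PAICS and ATIC stay above 0 and ADSL, TYMS, RRM2 and PFAS below 0 in all of them, while IMPDH1 and IMPDH2 each cross 0.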

How the data were processed

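RNA-seq libraries (NEBNext Ultra kit, 150 bp reads) came from 3 samples of KYSE70 and 3 of NRF2null-KYSE70. The submitters' processing notes name FastQC 0.11.5, cutadapt 1.12, STAR 2.6.90c and featureCounts 1.5.1, with hg38 for human reads. The deposited values are a signal in normalized counts, that is, reads per gene that the authors divided by DESeq2 size factors. The methods name a RefSeq annotation but the table lists Ensembl identifiers, and the treatment of strand and of multiply aligned reads was not stated. Columns name the line and no replicate. Whole reads were recovered for 100% of values (tolerance 0.01), giving totals of 52072801 to 63975313. Replicates differed by more than sampling noise in every pair (chi-square per degree of freedom 4.70 to 25.4), and none were merged.

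Genes with a mean of at least 10 were tested with limma 3.58.1 (R 4.3.3) on log2(normalized count + 1), trended eBayes, two-sided, with Benjamini-Hochberg adjustment over 15994 genes. This scale understates the change of low genes. edgeR 4.0.16 and DESeq2 1.42.0 were run on the recovered reads as alternatives, beside other pseudocounts, filters and scalings, arm-centring (each log2 fold change minus the median of its chromosome arm) and each library left out. The limma, edgeR and DESeq2 fits were checked on simulated data. Few genes were changed in these, and no arm shifts or outlying library were built in, so the check does not cover those features of the data. Positions and lengths came from GENCODE 44, in which 58472 genes were found, and promoters from RefSeq.

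The members and lists were chosen with earlier results of these data known. Besides the members, the text names a preset group of genes and, from each list, up to 3 of the largest rises and falls that passed. Some of these genes, and 1 of the 6 ratios, are not reported here.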

Additional observations from a re-analysis of the deposited data

How the results depend on the processing

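Over 18 alternatives, PPAT, GART, PAICS, ATIC, TYMS and RRM2 kept their direction and their call, with log2 fold changes of 0.69 to 0.86, 0.21 to 0.50, 0.26 to 0.43, 0.20 to 0.31, -0.49 to -0.31 and -0.71 to -0.54. PFAS passed with TMM (limma adjusted p = 0.0418), total (0.0056) and quantile scaling (0.00231), and ranged from 0.00137 to 0.241 with 1 library left out. Of these 6 fits it passed in the one without NRF2null-KYSE70 library 1. Total scaling moved the median log2 fold change over all genes tested to -0.08. ADSL did not pass without the trend (0.0584). Arm-centring reversed IMPDH2 (0.134) and IMPDH1 (0.238), and quantile normalization reversed IMPDH1 (0.970). The cause was not tested. A filter at a mean of 50 left 1511 genes past the fold cut-off against 2344, with fewer genes tested. Per kilobase, 4 (longest transcript) and 5 (canonical transcript) members kept their place in the KYSE70 order and 4 with either length in NRF2null-KYSE70. The canonical length was added after seeing the data. Of 53 other named genes, 39 kept their call and direction in all alternatives. Reversals were TK1 with quantile normalization (0.911), SHMT2 (6.26e-05), MCM2 (0.316), PLK1 (6.51e-05) and SOX2 (0.0241) with arm-centring. With 1 library left out, CAD changed sign in 3 of 6 fits and MKI67 in 2, and over all 6 the adjusted p was 0.0626 to 0.802 and 0.185 to 0.981. Arm-centring of the ratios, added after seeing the data, gave log2 changes of -0.16 for IMPDH1/IMPDH2 (reversed), -0.38 for RRM2/RRM1, -1.001 for RRM2/RRM2B and -0.58 for TYMS/TK1, the last 3 in the same direction. No paired analysis was possible because the columns carry no replicate numbers.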
